A study of Mus musculus with 36 samples.

Results

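Secreted proteins are made on ribosomes docked at the endoplasmic reticulum (ER), the membrane network in which new chains are threaded through a channel, trimmed, folded, joined by disulfide bonds and passed on to the Golgi. Collagen needs further steps there, because its chains are hydroxylated on proline and lysine and are held by a dedicated chaperone before they leave the cell. When unfolded chains accumulate, sensors in the ER membrane switch on chaperone genes, a programme called the unfolded protein response. In the injured heart, fibroblasts are the main makers of collagen for the scar. The genes described here are 41 such ER folding and collagen-processing genes, taken by symbol from the deposited count tables: 11 chaperones and co-chaperones, 4 disulfide isomerases, 9 collagen-modifying enzymes and collagen chaperones, 10 genes of the translocon and signal peptidase, 3 of ER-Golgi transport and 4 of stress signalling. They are 41 of 20716 nuclear genes listed, and all 41 were found.

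The cells came from the infarcted area and border zone of the left ventricle, or the matching area of sham hearts, of male mice, labelled as C57BL/6 aged 8 weeks in every group (the study's methods give C57BL/6 J and ages from 8 weeks up). They were profiled by SORT-seq, in which 1 sorted live cell per well of a plate is read by the 3′ ends of its transcripts, counted as unique molecular identifiers (UMIs). The control hearts had sham surgery and filled 4 plates at day 1 and 8 at day 14. Ischemia-reperfusion (IR), in which the left anterior descending artery was tied for 1 hour, filled 9 plates at day 1, 7 at day 3 and 3 at day 14, and myocardial infarction (MI), in which the tie was permanent, filled 5 at day 3. Sham hearts of day 3 were not analysed here, and the reference for MI and IR is the mean of the 2 sham days at equal weight, unless a day is named. The MI plates carry their own protocol label, so MI and the preparation of those plates cannot be told apart.

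Of 13824 wells, those with at least 1000 UMIs were sorted into classes by marker genes, without the 41 genes. They gave 315 fibroblast-like, 342 endothelial-like, 630 macrophage-like, 1145 cardiomyocyte-like, 156 neutrophil-like and 21 mural-like cells, while 537 stayed unnamed. Levels are UMIs of a class summed over a plate with at least 5 of its cells, given as a percent of all UMIs or as CPM (UMIs per 1000000 of the class and plate), with the SD over plates. Sham day 14 replicates 2 and 7 shared wells (34 wells of replicate 2 and 42 of replicate 7 were copies of the other) and were averaged into 1 plate, and a further 16 wells of replicate 2 matched IR day 3 replicate 6, while 17 and 5 wells of IR day 1 replicate 9 matched replicates 5 and 8. These further matches were kept, among them 3 of the 8 fibroblast-like and 4 of the 13 macrophage-like cells of IR day 1 replicate 9. That plate is thus not independent of the plates it matched. Fibroblast-like cells sufficed on 3 sham day 1, 1 sham day 14, 5 IR day 1, 4 IR day 3, 2 IR day 14 and 5 MI plates. Depth and quality differed between groups. The plate medians for fibroblast-like cells were 36330 to 54983 UMIs per cell in MI against 2957 to 4932 in sham, and mitochondrial transcripts made 6.34 to 10.4% in MI, 18.4 to 39.8% in sham and up to 64.6% (replicate 7) in IR day 3. Fibroblast marker genes summed to 55739 to 68967 CPM in sham, 67263 to 79879 in IR day 3, 30267 to 37191 in MI and 6405 to 24542 in IR day 1, whose cells thus carried the label most weakly.

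Within fibroblast-like cells the summed level of the 41 genes was highest in the 2 day 3 groups. They made 0.990 ± 0.0709% of fibroblast UMIs in sham day 1 (SD, n = 3 plates), 1.07% on the single sham day 14 plate, 1.31 ± 0.599% over the 5 plates of IR day 1, 1.60 ± 0.275% over the 4 of IR day 3, 0.868 ± 0.0422% over the 2 of IR day 14 and 1.90 ± 0.0895% over the 5 of MI. All MI plates (1.83 to 2.04%) and all IR day 3 plates (1.26 to 1.94%) lay above all sham plates (0.949 to 1.07%), and IR day 14 lay below them. IR day 1 spanned both ranges, since replicate 3 stood at 2.36% and the other plates at 0.868 to 1.15%. The collagen cargo, a list of 12 genes (collagens, fibronectin and Sparc) fixed for comparison, followed another order. It made 9.08% in IR day 3, 4.70% in MI, 4.32% in IR day 14, 3.99% on the sham day 14 plate, 1.96% in sham day 1 and 1.29% in IR day 1.

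**Figure D1:**
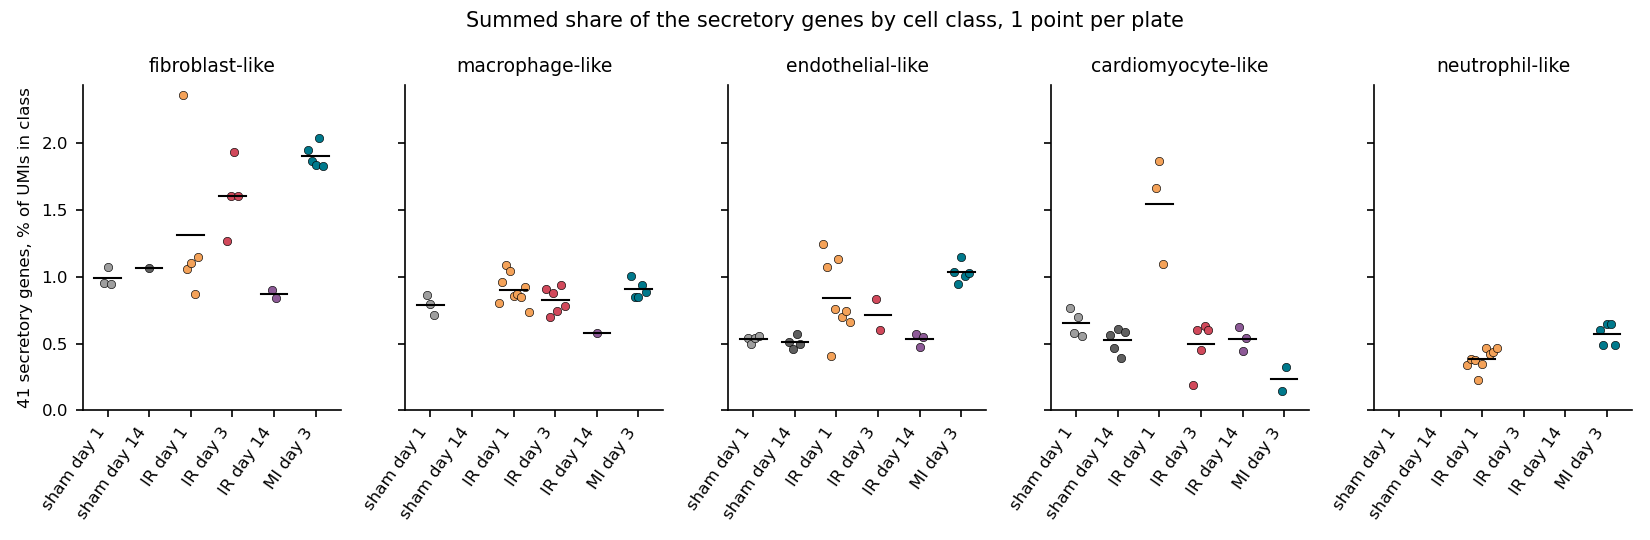
Percent of a class's UMIs that came from the 41 secretory genes (vertical axis), by group (horizontal axis) and cell class (panels), with 1 point per plate and a bar at the mean. Fibroblast-like cells of MI lie at 1.83 to 2.04% and those of sham day 1 at 0.949 to 1.07%.

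On the same plate, fibroblast-like cells had the higher summed level in 17 of 17 plates against macrophage-like cells, 17 of 18 against endothelial-like cells, 13 of 13 against cardiomyocyte-like cells and 10 of 10 against neutrophil-like cells. The classes were drawn from the same wells, so these are descriptions and carry no test. The separation was widest for the collagen-modifying genes, which made 0.388% of fibroblast UMIs and 0.0504% of macrophage UMIs at the median, with a ratio between 2.94 and 17.7. It was absent for stress signalling against neutrophil-like cells, where the fibroblast level was higher on 2 of 10 plates. Against endothelial-like cells the 9 collagen-modifying genes differed less, at 0.204% and 0.145%.

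Gene by gene, the separation from macrophage-like cells ran across the role groups. Serpinh1 (HSP47, the collagen-specific chaperone) was higher in fibroblast-like than in macrophage-like cells by a median of 5.10 on the log2 scale (CPM + 10), Fkbp10, a prolyl isomerase that serves collagen, by 4.43, Plod2, a lysyl hydroxylase, by 3.70, and the KDEL receptor gene Kdelr3 by 3.86, each on 17 of 17 plates. Fkbp11 was higher by 3.33 on 15 plates, and the translocon genes Ssr1 and Ssr2 by 1.19 and 1.62 on 17. Within the collagen group, Plod1 (0.29 on 15 plates), P4ha1 and Ppib (0.83 each, on 12 plates) differed less. Several general ER genes did not follow. Sdf2l1, which keeps the chaperone BiP in cycle, was higher in fibroblast-like cells on 1 of 17 plates (median log2 difference -1.54), the signal peptidase subunit gene Spcs2 on 6 and the isomerase gene Pdia4 on 7 of 17. Against endothelial-like cells, Plod1 was the exception within its family, with the fibroblast level higher on 2 of 18 plates, while Plod2, Fkbp10, Sec61b, Kdelr2 and Kdelr3 were higher on 18 of 18. Against cardiomyocyte-like cells, the BiP gene Hspa5 was higher in fibroblasts on 6 of 13 plates and P4ha2 on 4 of 13, whereas Sec61a1, Sec61b and Serpinh1 were higher on 13 of 13.

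**Figure D2:**
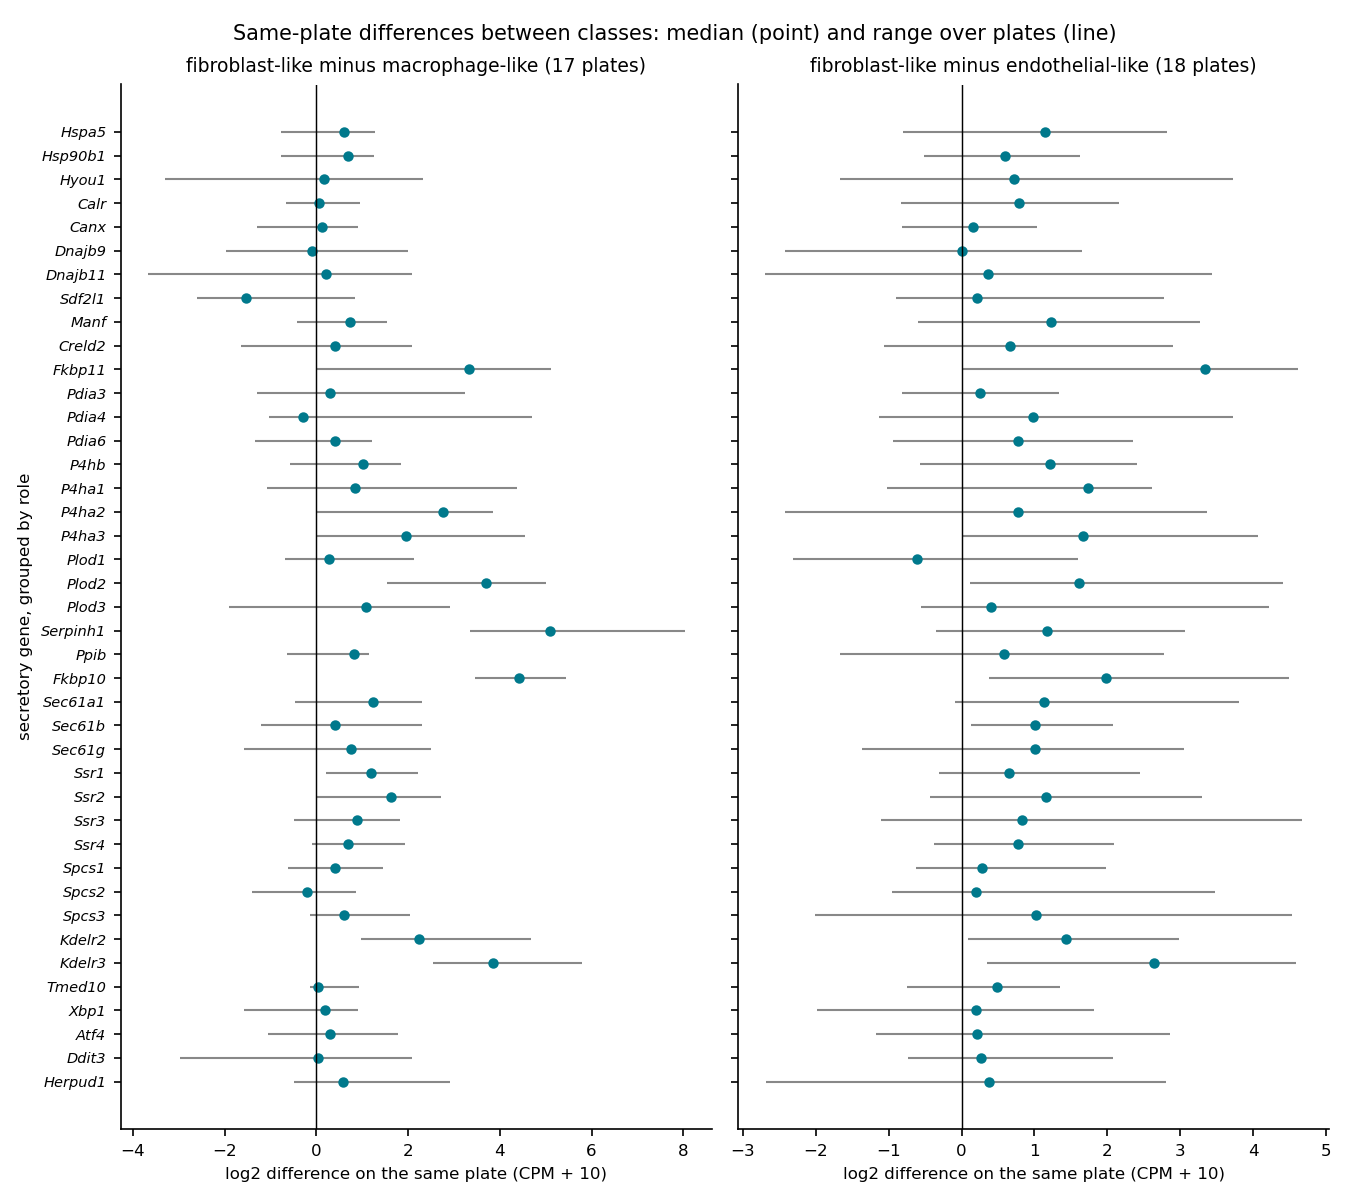
Difference in level between fibroblast-like and macrophage-like (left) or endothelial-like cells (right) of the same plate, on the log2 scale of CPM + 10 (horizontal axis), for each gene (vertical axis), as the median (point) and the range over plates (line). Serpinh1 and Fkbp10 lie to the right of 0 on all 17 plates shared with macrophage-like cells, and the points of Sdf2l1 and Spcs2 lie to its left.

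Comparisons between groups used the plate sums of a class in edgeR's quasi-likelihood test with Benjamini-Hochberg adjustment over all genes tested, and a gene was called at an adjusted p under 0.05. The filter on low counts was applied over all groups of a class at once, so a gene scarce in a group can enter through the others. A call of a gene that entered only in this way carries no support. Plates count as replicates. The study used 3 mice per condition, so MI plates share mice. The labels do not tie plates to mice, so plates of the sham and IR groups may share mice as well, and the p-values may be too small. The comparisons of MI, IR day 3 and IR day 1 with sham share the same sham plates and are therefore not independent of each other. The sham day 14 fibroblast plate, with 51041 UMIs, is a single plate that carries as much weight as the 3 sham day 1 plates together.

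In fibroblast-like cells 3 days after MI, 19 of the 39 genes tested rose against sham and none fell, where 11.9% of all 6436 genes tested were called higher and 6.00% lower. As a log2 fold change, the median over the genes described here was 1.20 and over all genes 0.42. With RLE in place of TMM scaling (both set the plates to a common depth) the medians were 0.92 and 0.14, the calls among the 41 were 13 higher and 1 lower (Tmed10), and those over all genes turned from 764 higher and 386 lower to 460 and 502. Of the genes tested, to which all such counts refer, the groups did not overlap for 26 higher in MI and 2 lower (Tmed10 and Xbp1), against 19.0% of all genes higher and 8.62% lower. Of the MI fibroblast-like cells 130 of 131 lay in cluster 5, and of the sham day 1 cells 23 of 24 lay in cluster 14. Depth, mitochondrial share, the cardiomyocyte markers (26.5 to 221 CPM in MI, 1844 to 12406 in sham) and the mural markers (1406 to 1812 and 216 to 714) moved with this comparison, and their part in it was not tested. With plate sums thinned to equal depth, 8 of 29 genes tested were called, all higher. Against sham day 14 alone 6 were called, but that arm is 1 plate, assumed to vary like the other groups, here and in the comparisons of IR with sham.

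Of the 10 translocon and signal peptidase genes 7 rose. Ssr2, a subunit of the TRAP complex beside the channel, stood at 452, 398, 366, 410 and 375 CPM on the MI plates against 59.9, 74.4 and 182 in sham day 1 and 98.0 in sham day 14. Every MI plate lay above every sham plate, and the log2 fold change was 2.20 (SE 0.404, adjusted p = 0.000639). Sec61b, a small subunit of the channel itself, read 391 to 462 CPM in MI and 89.2 to 145 in sham (2.19, adjusted p = 0.000874). Spcs3 of the signal peptidase, which cuts off the leader of a secreted chain, rose by 2.38 (142 to 199 against 19.6 to 89.2 CPM, adjusted p = 0.000938). Ssr1 (1.98), Sec61g (2.07), Sec61a1 (1.55), which forms the pore, and Ssr4 (1.09) were called too, all without overlap between groups. The fitted changes of Ssr3 (1.20), Spcs1 (1.06) and Spcs2 (0.76) were not past the test.

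Of the 9 collagen-modifying genes, 8 rose and Plod1 (log2 fold change 0.48) was not past the test. P4ha1, a catalytic subunit of prolyl 4-hydroxylase, read 315, 287, 308, 284 and 267 CPM in MI against 150, 134 and 36.4 in sham day 1 and 78.4 in sham day 14 (1.78, SE 0.437, adjusted p = 0.00672). All 5 MI plates lay above all 4 sham plates. P4ha3, a sister subunit on chromosome 7 (GRCm38 chr7:100285489-100319701), had 0 UMIs on all sham plates and 64.1 to 83.1 CPM in MI. Against the 3 UMIs that a count of 0 allows over the group, it was at least 4.32-fold higher. It passed the filter on low counts only through the plates of injured hearts, so its calls against sham, which are among the counts given here, carry no support. P4hb, the shared second subunit that is also a disulfide isomerase, rose from 274 to 610 CPM in sham to 1192 to 1451 in MI (1.99, adjusted p = 0.00102), and the other 3 disulfide isomerases, Pdia3, Pdia4 and Pdia6, were not past the test (log2 fold changes 0.37, 0.62 and 0.98). Serpinh1 stood at 2592 to 3055 CPM in MI and 809 to 1450 in sham (1.32, SE 0.440, adjusted p = 0.0384), and Fkbp10 at 319 to 388 and 78.4 to 218 CPM (1.96, adjusted p = 0.00660). The other calls in the group were Ppib, a cyclophilin of the ER (2.03), Plod2 (1.77), P4ha2 (2.29) and the lysyl hydroxylase gene Plod3 (1.22).

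**Figure D3:**
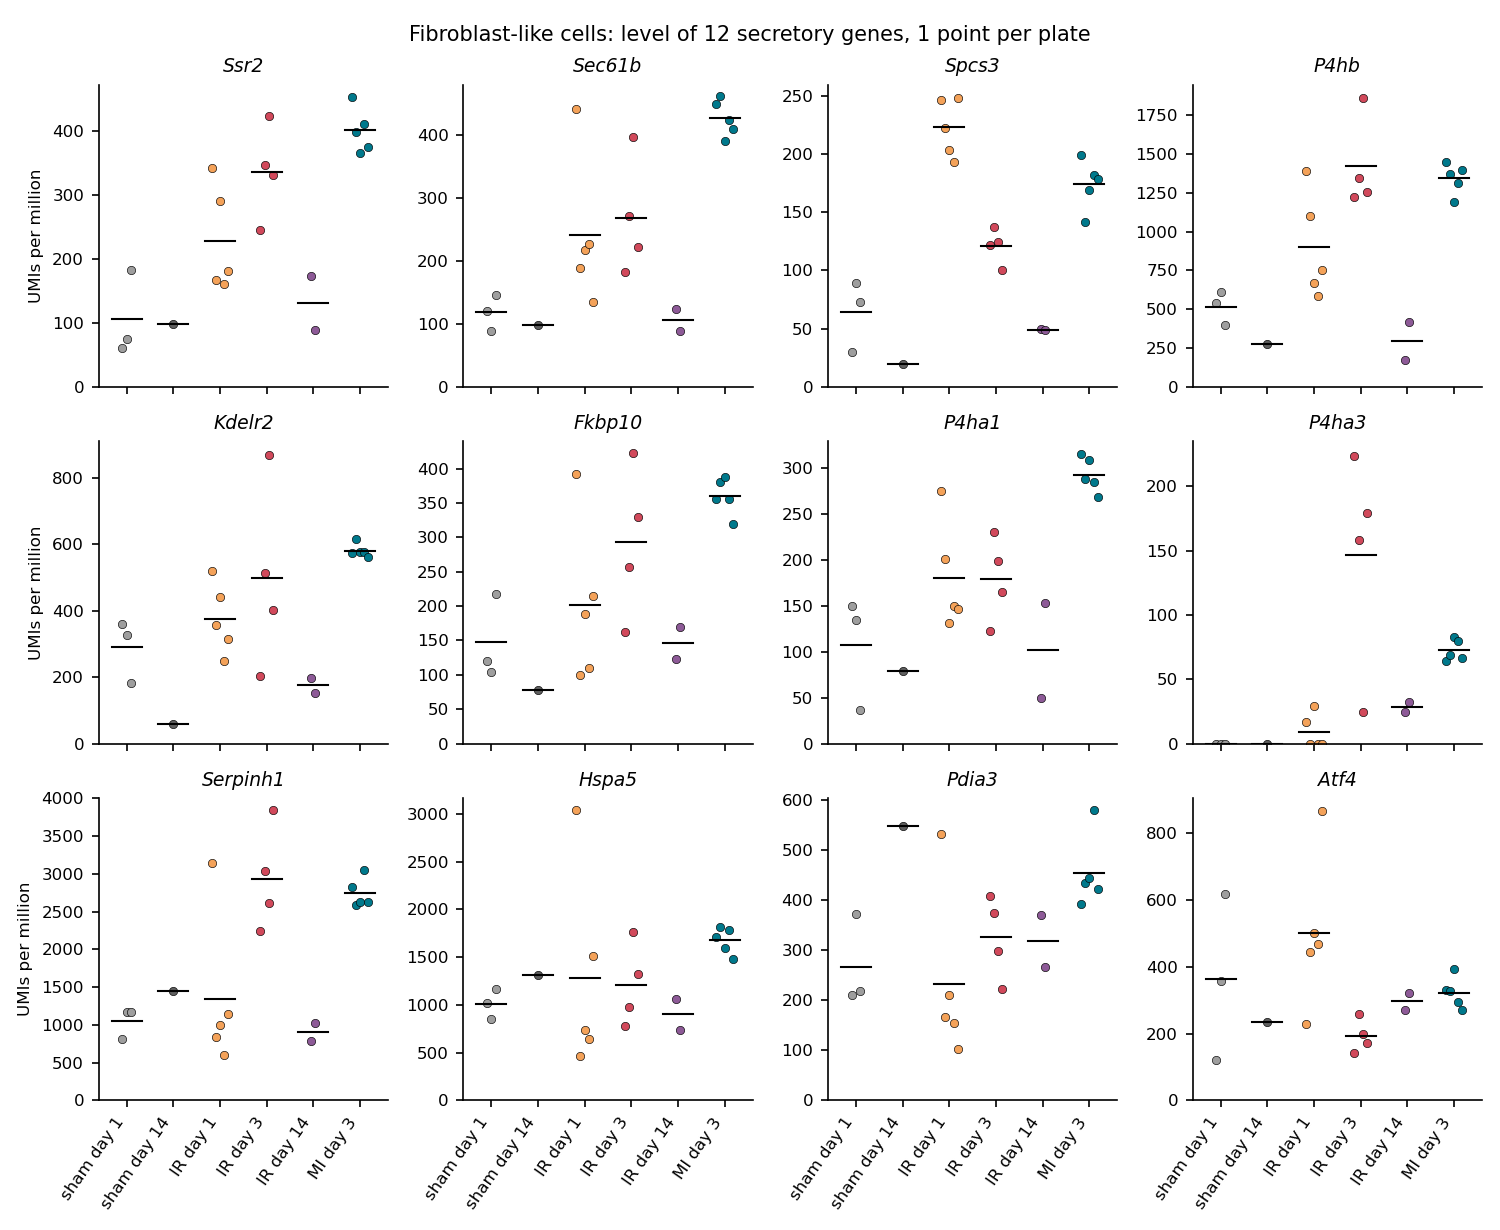
Level of 12 secretory genes in fibroblast-like cells (vertical axis, CPM of the summed plate) by group (horizontal axis), with 1 point per plate and a bar at the mean. Ssr2, P4hb and P4ha1 of the MI plates lie above every sham plate, P4ha3 is at 0 on the sham plates, and Atf4 overlaps between MI and sham.

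Of the 10 chaperones tested 2 were called higher, Calr and Fkbp11. Calr, the lectin chaperone calreticulin, read 1252 to 1683 CPM in MI and 647 to 869 in sham (1.20, SE 0.394, adjusted p = 0.0361), without overlap. Fkbp11, a secretory-pathway isomerase, had 1748 UMIs in MI and 5 over the sham plates, with 0 on the day 14 plate, so it entered the test through the injured plates and its call carries no support. Its pooled ratio was 8.92 (95% counting interval 3.82 to 27.5). Hspa5 (BiP, the master ER chaperone) read 1479 to 1812 CPM in MI and 848 to 1313 in sham, groups that did not overlap, yet its change was not past the test (0.73, SE 0.449, adjusted p = 0.277). Hsp90b1 (GRP94) was not past it either (0.76). Intervals and limits of this kind cover counting error only. Kdelr2, the receptor that retrieves such chaperones from the Golgi, rose by 2.30 (563 to 617 against 58.8 to 360 CPM, adjusted p = 0.00124), while Kdelr3 (1.03) and the cargo receptor Tmed10 (-0.52) were not past the test. No stress signalling gene was past edgeR's test, and Ddit3 was too low to enter it (11.1 to 14.1 CPM in MI and 29.7 to 39.2 in sham, the latter from 6 UMIs). Xbp1, a transcription factor of the unfolded protein response, had a log2 fold change of -0.47, Atf4, a factor made when general translation is slowed, 0.32, and Herpud1, a component of ER-associated degradation, -0.70.

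The start regions of 4 genes are shown here because each holds a response element through which the unfolded protein response is known to act. Windows of 300 bases around the start of transcription (250 before, 50 after; RefSeq, GRCm38.p6) were found for 33 of the 41 genes (not for Ssr2, Hyou1, Sec61a1, Spcs3, Manf, Fkbp10, Plod2 and Kdelr2) and searched on both strands. The ER stress response element (ERSE), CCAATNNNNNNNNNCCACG, occurred in 39 of 32851 windows of all genes (0.119%) and in those of 6 members, Pdia6 and 5 of the 9 chaperone genes searched (Calr, Canx, Creld2, Hsp90b1 and Hspa5). The related ERSE-II, ATTGGNCCACG, was in 12 windows (0.0365%), including Herpud1 and Dnajb11. The XBP1-type element TGACGTGG was in 222 windows (0.676%), of members only Kdelr3, and the ATF4-type element TTGCATCA in 294 windows (0.895%), of members only Herpud1. The motifs share letters and can overlap in principle, but no matches in a member's window overlapped. Of these, 4 windows are given below without their transcribed part, 5′ to 3′ on the gene's strand and with the ERSE or ERSE-II match in capitals (an ERSE on the opposite strand reads CGTGG first). They lie at chr2:34771840-34772089 (Hspa5), chr10:86705445-86705694 (Hsp90b1, minus strand), chr8:84846932-84847181 (Calr, minus strand) and chr8:94386179-94386428 (Herpud1).
Hspa5: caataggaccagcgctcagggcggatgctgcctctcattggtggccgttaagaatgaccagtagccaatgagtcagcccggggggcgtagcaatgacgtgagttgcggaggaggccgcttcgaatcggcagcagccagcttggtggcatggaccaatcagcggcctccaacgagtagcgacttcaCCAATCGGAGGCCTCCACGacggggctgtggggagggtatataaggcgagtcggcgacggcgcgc
Hsp90b1: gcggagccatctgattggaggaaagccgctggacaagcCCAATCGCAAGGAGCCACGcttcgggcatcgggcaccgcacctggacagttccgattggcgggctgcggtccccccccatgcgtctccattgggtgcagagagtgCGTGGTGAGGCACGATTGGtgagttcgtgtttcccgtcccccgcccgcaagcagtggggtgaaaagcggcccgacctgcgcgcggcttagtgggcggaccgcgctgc
Calr: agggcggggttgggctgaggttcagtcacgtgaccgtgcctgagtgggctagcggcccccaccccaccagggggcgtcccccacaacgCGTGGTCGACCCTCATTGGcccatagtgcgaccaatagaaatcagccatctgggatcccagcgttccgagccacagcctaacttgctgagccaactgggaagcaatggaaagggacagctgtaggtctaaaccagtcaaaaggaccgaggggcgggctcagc
Herpud1: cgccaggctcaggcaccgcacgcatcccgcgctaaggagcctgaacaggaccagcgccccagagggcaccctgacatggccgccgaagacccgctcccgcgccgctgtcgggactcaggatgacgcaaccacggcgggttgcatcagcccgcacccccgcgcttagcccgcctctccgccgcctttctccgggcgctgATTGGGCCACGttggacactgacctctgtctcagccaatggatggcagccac

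The element began 65 bases before the start of transcription in Hspa5, 212 and 107 in Hsp90b1, 162 in Calr and 52 in Herpud1. The matches in the other 3 windows with an ERSE were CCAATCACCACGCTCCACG (Canx, from base 145), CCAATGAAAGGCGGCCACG (Pdia6, from base 98) and, on the opposite strand, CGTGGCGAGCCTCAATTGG (Creld2, from base 126). The ERSE-II of Dnajb11, ATTGGCCCACG, began 7 bases after the start, in the transcribed part. Set against the fibroblast results, the 6 members with an ERSE had a median log2 fold change of 0.87 in MI against sham with 1 called (Calr), and the 27 members whose window had no ERSE a median of 1.09 with 12 of 25 tested called. Over all genes the median was 0.42 and 11.9% were called higher. The 12 include P4ha3 and Fkbp11, whose calls carry no support, and members without a window are in neither set. A match of letters is a description and does not show that a factor was bound.

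The other genes of the pathway, from 5 lists that do not contain the 41, are read against the 11.9% of all genes called higher. Of the 25 translocation and N-glycosylation genes tested 8 rose, among them Ostc (2.13), Stt3a (1.72) and Rpn1 (1.44), which belong to the enzyme that attaches sugars to new chains. Of 35 ER-Golgi transport genes 14 rose, including the coat gene Copg1 (2.31) and the cargo receptor gene Surf4 (1.34). Of 33 other folding and collagen-processing genes 6 rose, with Rcn1, a calcium-binding ER protein, at 1.82, and of 21 genes of stress signalling and ER-associated degradation 2 rose, Asns and Ddit4, a share below that of all genes. Asns, the asparagine synthetase gene, had 505 UMIs in MI and 0 in sham, so its call cannot be read, as for P4ha3. The same limit holds for any other listed gene too scarce in sham to pass the filter on low counts there. Of the 12 cargo genes Col1a1 (2.03), Col5a2 (1.58) and Fn1 (2.21) rose and Col6a1 fell (-1.39). The cargo genes are partly markers by which fibroblast-like cells were named, so their counts are not independent of the class.

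After 3 days of IR, 6 of 39 genes rose in fibroblast-like cells against sham and none fell, where 1.09% of all genes were called higher and 0.513% lower. Their median was 0.76 on the log2 scale, against 0.40 over all genes (0.59 and 0.21 with RLE scaling). P4hb read 1221, 1346, 1864 and 1256 CPM on the IR day 3 plates, all above the highest sham plate at 610 (2.10, SE 0.397, adjusted p = 0.00993). P4ha3 read 224, 158, 24.9 and 179 CPM where sham was at 0, at least 9.53-fold higher (the limit on its call is as for MI). Ssr2 (244 to 423 CPM, 2.02), Ssr1 (336 to 845, 1.84) and Spcs3 (100.5 to 137, 1.96) rose without overlap with sham, and Kdelr2 rose by 2.10 (204 to 870 CPM), although its lowest plate lay within the sham range. Serpinh1 stood at 2239 to 3840 CPM, above the 809 to 1450 of sham, but was not past the test (1.50, adjusted p = 0.0964). The 9 collagen-modifying genes had a median of 1.67, and of them none but P4ha3, whose call carries no support, was called. Groups did not overlap for 8 of the genes tested higher and 1 lower (Xbp1), against 4.13% and 3.42% of all genes. The IR day 3 cells lay in clusters 5 (36 cells), 14 (20) and 13.2 (15), and 37 of the 39 sham cells in cluster 14. Endothelial markers read 174 to 875 CPM in IR day 3 and 36.4 to 193 in sham, and mural markers 407 to 1939 and 216 to 714. Markers of another class were carried by 26 of 71 IR day 3 cells, 3 of 24 of sham day 1 and 4 of 15 of sham day 14. The part of these in the result was not tested. At equal depth only P4hb of 29 genes tested was called, and against the 1 plate of sham day 14 alone edgeR called none of the genes.

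After 1 day of IR, 9 of 39 genes had risen in fibroblast-like cells against sham and none had fallen, where 13.5% of all genes were called higher and 7.74% lower. The median was 0.88 (0.83 with P4ha3 at its counting limit), against 0.35 over all genes. Of the 9 calls 6 were translocon and signal peptidase genes. Spcs3 read 246, 222, 203, 193 and 248 CPM, against 19.6 to 89.2 in sham (2.68, SE 0.456, adjusted p = 0.00026), and the groups lay apart. Ssr1 (1.66), Sec61g (1.76), Ssr4 (1.24), Ssr2 (1.36) and Sec61b (1.37) rose, as did P4hb (1.35) and Kdelr2 (1.62), all but Sec61g with overlap between groups. Fkbp11 had 122 UMIs against 5 in sham, a pooled ratio of 6.47 (2.70 to 20.3), and its call carries no support here either. None of the 9 collagen-modifying genes was past edgeR's test, and Serpinh1 changed by 0.25 (adjusted p = 0.713). Non-overlapping groups were found for 3 genes higher and 1 lower (Spcs3, Fkbp11, Sec61g and Tmed10), against 11.5% and 7.15% of all genes. With RLE scaling 9 were called higher and 1 lower (Tmed10), at an all-gene median of 0.21. These cells carried the fibroblast markers at the lowest level of all groups, and 44 of the 54 lay in cluster 5, where 37 of the 39 sham cells lay in cluster 14. Cardiomyocyte markers read 133 to 436 CPM in IR day 1 and 1844 to 12406 in sham. The part of these in the result was not tested. At equal depth 5 of 29 genes tested were called (4 higher, 1 lower), and against the 1 plate of sham day 14 alone 2 were.

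Between the 2 injuries at day 3 few of the genes differed in fibroblast-like cells, with 1 higher and 1 lower in MI than in IR, where 4.21% of all genes were called higher and 6.65% lower. Sec61a1 read 465, 488, 475, 522 and 405 CPM in MI and 102, 237, 398 and 129 in IR day 3 (1.12, SE 0.328, adjusted p = 0.0287), and the groups did not overlap. P4ha3 was lower in MI (-1.22, SE 0.334, adjusted p = 0.0204), but its IR day 3 plates ran from 24.9 to 224 CPM around the MI range of 64.1 to 83.1, and both calls depended on single plates: without IR day 3 replicate 4, and likewise without replicate 7, no gene was called by edgeR's test (6 genes had an unadjusted p under 0.05 with all plates, and DESeq2 called 3). At equal depth edgeR called none of 29 tested, while 7 were called with at least 10 cells per plate and 4 without the cells carrying markers of other classes. Leaving out IR day 3 replicate 3 or any 1 of MI replicates 1 to 4 left 1 call. Groups lay apart for 7 genes higher in MI and none lower, against 11.3% and 4.37% of all genes. Cardiomyocyte markers (26.5 to 221 CPM in MI, 1282 to 14722 in IR day 3) and fibroblast markers (30267 to 37191 and 67263 to 79879) moved with this comparison. So did the plate medians of depth (36330 to 54983 and 1886 to 5986 UMIs per cell). Of the MI cells 130 of 131 lay in cluster 5, and of the IR day 3 cells 36 of 71. Markers of another class were carried by 26 of 71 IR day 3 cells and 0 of 131 MI cells. The part of all these in the result was not tested. Of the cargo, Col6a2 (-2.13), Col6a3 (-1.32) and Col6a1 (-1.33) were lower in MI.

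From day 1 to day 3 of IR the collagen chaperone gene Serpinh1 rose and 3 genes of other roles fell, and P4ha3, with 7 UMIs on 5 plates at day 1 and 83 on 4 at day 3, was called higher (4.04) but passed the filter through the plates where it was high, so that this call carries no support. Serpinh1 rose by 1.25 (2239 to 3840 CPM against 597 to 3149, adjusted p = 0.0169). Hyou1, an ER chaperone of the heat-shock family, fell by 1.70 (0 to 35.9 against 49.7 to 157 CPM, adjusted p = 0.0107), Atf4 fell by 1.16 (143 to 258 against 229 to 869, adjusted p = 0.0225) and Spcs3 fell by 0.72 (adjusted p = 0.0495). These 2 higher and 3 lower calls stand beside 12.3% and 11.1% of all genes, and groups lay apart for Hyou1 and Spcs3, both lower, against 8.31% of all genes lower and 5.11% higher. Of the cargo 10 of 12 genes were higher, Col1a1 by 3.60 and Col1a2 by 3.74. Fibroblast markers (6405 to 24542 CPM at day 1, 67263 to 79879 at day 3) and cardiomyocyte markers (133 to 436 and 1282 to 14722) moved with the comparison, 44 of 54 cells of day 1 and 36 of 71 of day 3 lay in cluster 5, and the part of these in the result was not tested. Without IR day 1 replicate 3, the plate with the highest level of the 41 genes, 13 of the 41 were called (11 higher, 2 lower), without IR day 1 replicate 9 there were 3 calls, and without IR day 3 replicate 7 there were 2.

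At day 14 of IR the 2 fibroblast plates (0.898 and 0.839% of UMIs) lay below all sham plates, and no test was planned for them. P4ha3 was still seen there at 24.7 and 32.2 CPM, and Fkbp11 was at 0 UMIs on both.

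**Figure D4:**
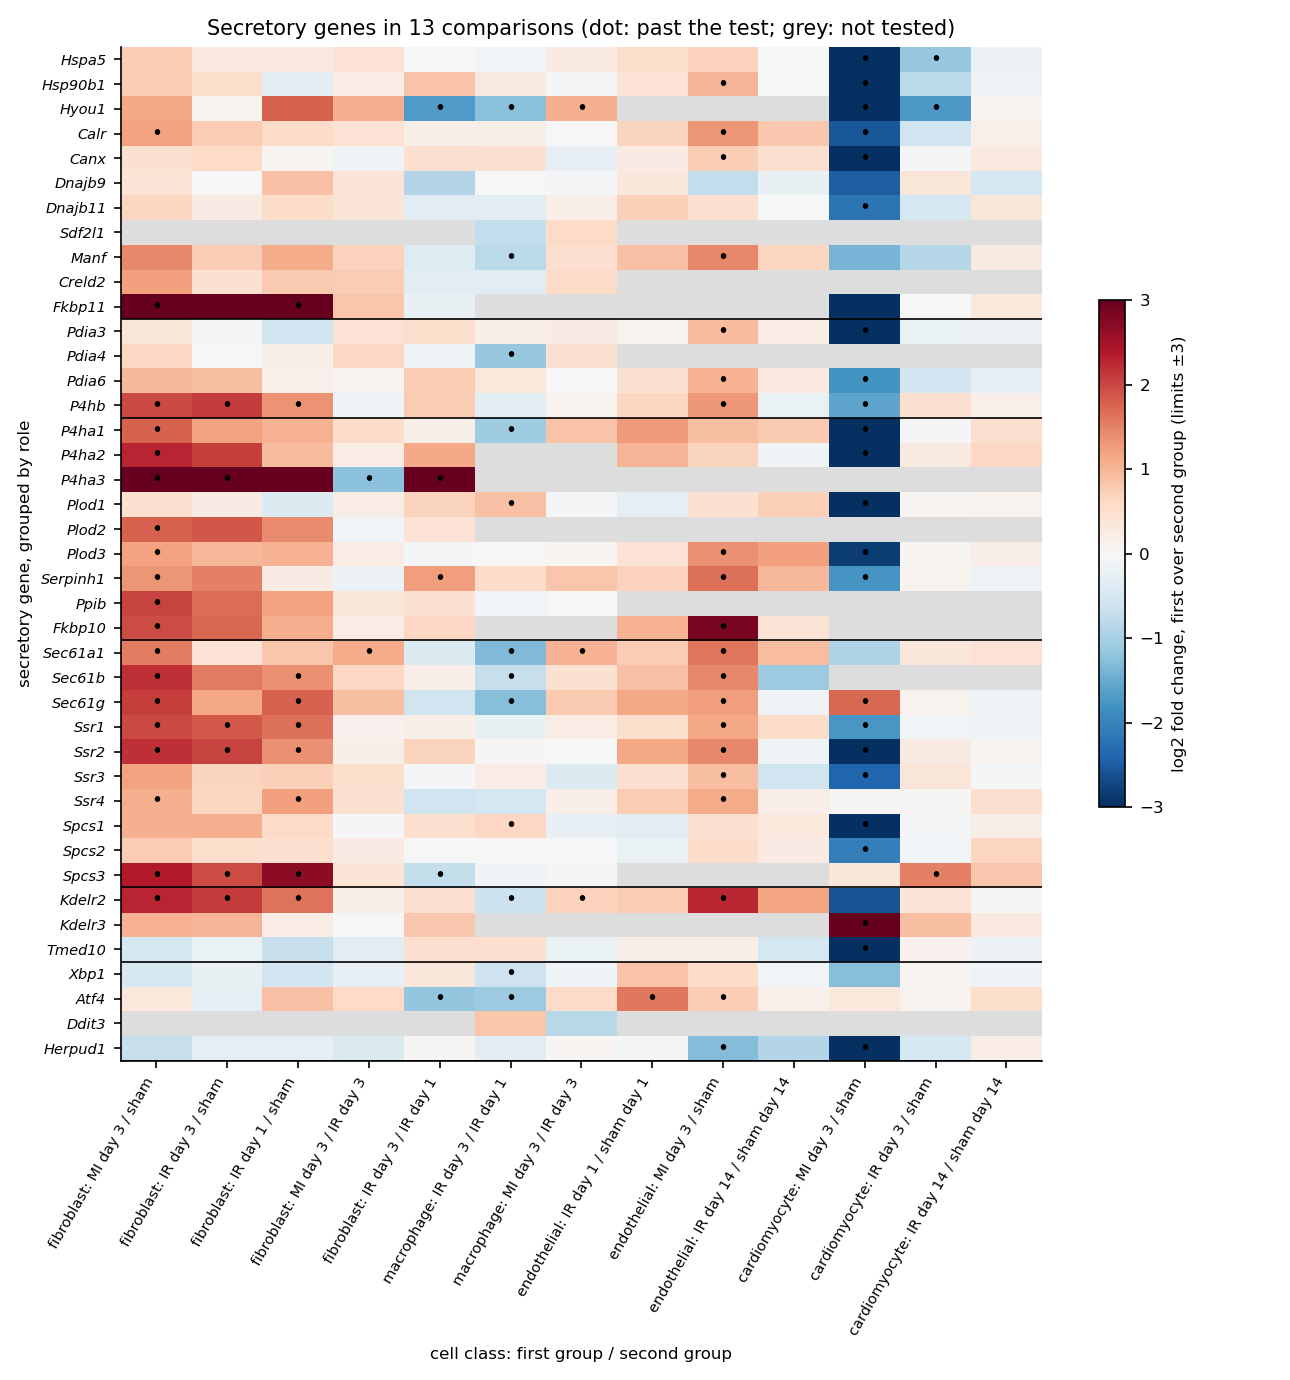
Log2 fold change of each of the 41 genes (vertical axis, ordered by role) in 13 comparisons (horizontal axis), colour clipped at ±3, with a dot where edgeR's test was passed and grey where a gene was not tested. The dots are dense for translocon and collagen-modifying genes in MI fibroblasts and for the chaperones of MI cardiomyocyte-like cells, where the sign is opposite.

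Among the fibroblast-like cells of MI, the deepest of the class by plate median (single cells 1675 to 233033 UMIs), the 41 genes varied from cell to cell, and in the shallowest cells the shares rest on few UMIs. The plate medians were 1.96, 1.70, 1.83, 1.97 and 1.74% of a cell's UMIs, with single cells between 0.699 and 3.72%. The share of the 9 collagen-modifying genes went with that of the collagen cargo in the same cell. Spearman's rho was 0.833, 0.690, 0.824, 0.743 and 0.706 over 26, 29, 34, 20 and 22 cells of the 5 plates. For all 41 genes it ran from 0.197 to 0.643, and with the cell's depth from -0.227 to 0.413. Both shares have the same UMI total as divisor and cells of a plate share a library, so these values are descriptions.

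**Figure D5:**
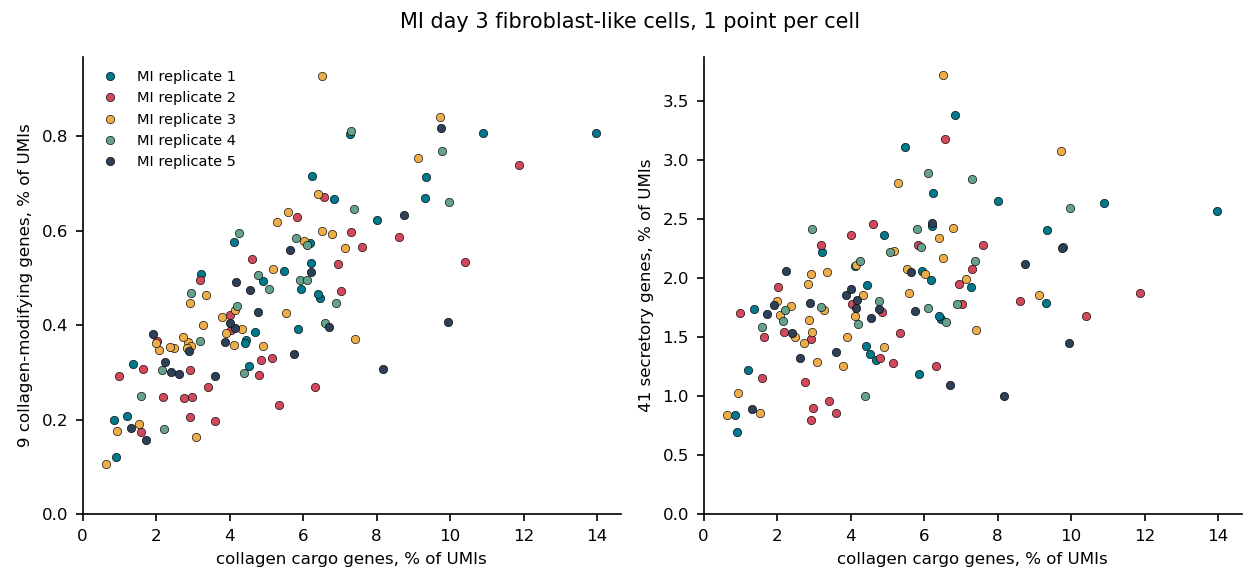
Each point is a fibroblast-like cell of MI, with its share of UMIs from the collagen cargo (horizontal axis, percent) and from the collagen-modifying genes or all 41 genes (vertical axis, percent). The collagen-modifying genes follow the cargo more closely, with rho between 0.690 and 0.833 on the 5 plates.

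In endothelial-like cells 3 days after MI, 19 of 30 genes tested rose against sham and 1 fell, where 17.2% of all 3839 genes were called higher and 13.8% lower (31.0% in either direction), and the median was 0.99 against 0.08. Together the 41 genes made 0.949 to 1.15% of UMIs in MI and 0.459 to 0.574% in sham. Kdelr2 read 293, 288, 284, 257 and 375 CPM on the MI plates and from 0 to 106 on the 8 sham plates, with no overlap (2.26, SE 0.346, adjusted p = 3.99e-06). Serpinh1 stood at 1049 to 1640 CPM in MI and 158 to 745 in sham (1.66, adjusted p = 0.000199), and Fkbp10 at 81.7 to 168 and 0 to 43.4 (2.84, adjusted p = 0.000281). Both collagen-handling genes were separate between groups. No sham plate of Fkbp10 or Kdelr2 reached the level that the filter on low counts asks. Both entered the test through injured plates, and their calls, which are among the counts given here, carry no support. Calr rose by 1.32 (616 to 860 against 137 to 412 CPM) and Manf, a small ER protein induced by stress, by 1.44.

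The translocon gave 7 of 9 calls, with Sec61a1 (1.61), Sec61b (1.43), Sec61g (1.26), Ssr1 (1.17) and Ssr2 (1.45) among the most significant, and P4hb (1.30) and Plod3 (1.36) rose as well. Besides these, 7 more rose, and Hspa5 (0.68) and Xbp1 (0.54) were not past the test. Herpud1 fell by 1.30 (at most 99.9 CPM in MI, 54.7 to 197 in sham, adjusted p = 0.0204), with overlap. Groups lay apart for 10 genes, all higher, against 6.75% of all genes higher and 6.25% lower. Of the 5 genes tested with an ERSE in their window 4 rose, and of 20 without it 10 rose and 1 fell. Over all genes 17.2% were called higher and 13.8% lower. With RLE scaling 17 rose and 1 fell, while all genes turned from 660 higher and 531 lower to 570 and 626. Cardiomyocyte markers (42.9 to 290 CPM in MI, 8696 to 30582 in sham) and mitochondrial transcripts (9.04 to 15.3% and 27.2 to 50.3%) moved with the comparison, as did fibroblast markers (895 to 2636 CPM in MI, 369 to 1117 in sham), and their part was not tested. Of the endothelial-like cells 53 of 57 in MI lay in cluster 10 (led by Plvap, with Vwf and Apln) and 137 of 147 in sham in cluster 4, so the groups compared are largely different clusters. At equal depth, 4 of the 9 genes still tested were called.

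Of the remaining pathway genes tested in these cells, where 17.2% of all genes were called higher, those that rose were 8 of 20 translocation and N-glycosylation genes (Stt3a 1.65, Ost4 1.48, Dad1 1.01), 7 of 27 transport genes (Surf4 1.42, Tmed9 1.12, Arcn1 1.16), 6 of 19 folding genes (Calu 1.36, Txndc5 2.26, Prkcsh 1.37) and 2 of 12 stress and degradation genes (Edem1 2.17, Eif2s1 1.48), the last a share no larger than that of all genes. Of 9 cargo genes 7 rose, Col3a1 by 2.90.

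After 1 day of IR only Atf4 was called in endothelial-like cells against sham day 1, where 4.74% of all genes were called higher and 5.76% lower. Its level was 149, 411 and 1141 CPM (lowest, median and highest of 8 plates) against 76.7 to 191 (1.57, SE 0.333, adjusted p = 0.00159), with 1 plate inside the sham range. Over the 30 genes tested the median was 0.66 against -0.01 for all genes, 8 had an unadjusted p under 0.05, and DESeq2 called 2. The count was 5 with wells of at least 500 UMIs, 3 with at least 2000, and 2 without IR day 1 replicate 5. Of the cells 43 of 71 in IR day 1 lay in cluster 10 and 78 of 85 in sham day 1 in cluster 4, cardiomyocyte markers read 285 to 10988 CPM in IR day 1 and 8696 to 14582 in sham day 1, and their part was not tested. Sec61b was the only gene whose groups lay apart, against 2.34% of all genes higher and 2.74% lower. After 14 days no gene of the 30 was called against sham day 14, as for all genes tested (0%), and all 30 overlapped between groups, where 2.45% of all genes lay apart higher and 3.75% lower. There edgeR gave 1 unadjusted p under 0.05 among the 30, and DESeq2 called 0.

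In macrophage-like cells the genes made 0.580 to 1.09% of UMIs on all plates. From day 1 to day 3 of IR, of 35 genes tested 10 fell and 2 rose, where 12.3% of all 5101 genes were called lower and 14.5% higher. Sec61a1 read 34.0, 60.9 and 109 CPM on the 6 plates of day 3 (lowest, median and highest) and 121, 183 and 401 on the 9 plates of day 1, without overlap (-1.32, SE 0.265, adjusted p = 0.000402). The other falls were in Hyou1 (-1.25), Atf4 (-1.09), Sec61g (-1.27), Pdia4 (-1.14), Manf (-0.81), P4ha1 (-1.07), Xbp1 (-0.61), Kdelr2 (-0.64) and Sec61b (-0.70), and Plod1 (0.88) and Spcs1 (0.62) rose, all with overlap. Sec61a1 was the only gene with separate groups, against 1.76% of all genes. The class was made of different clusters at the 2 times, with 98 of 116 cells of day 1 in cluster 1 and 138 of 193 cells of day 3 in cluster 8. Macrophage markers (2710 to 9970 CPM at day 1, 12237 to 18682 at day 3) and cardiomyocyte markers (143 to 1510 and 740 to 3583 CPM) moved with the comparison, and their part was not tested. At equal depth 2 of 20 genes tested were called.

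After MI, 3 of the 35 genes were higher in macrophage-like cells than after 3 days of IR and none was lower, where 5.00% of all genes were called higher and 4.47% lower (9.47% in either direction). Hyou1 rose by 1.08 (51.7 to 72.0 against 23.6 to 51.4 CPM, adjusted p = 0.00809), Sec61a1 by 1.04 (147 to 167 CPM, adjusted p = 0.00852) and Kdelr2 by 0.70 (102 to 133 against 24.4 to 106, adjusted p = 0.0401). Without IR day 3 replicate 4 there was 1 call and without replicate 7 there were none by edgeR. DESeq2 called 4 and edgeR gave 8 unadjusted p under 0.05. Groups lay apart for 3 genes higher (Hyou1, Sec61a1 and Sec61b) and none lower, against 5.90% and 2.90%. Whether MI and IR day 3 differed by another amount in fibroblast-like than in macrophage-like cells was tested for all 41 genes. For 40 of them it was not past the test, where 0.224% of 10276 genes were higher and 1.90% lower. P4ha3 entered that fit through its fibroblast counts, and the value fitted for it (-2.58, SE 0.577, adjusted p = 0.0176, and 0.405 without IR day 3 replicate 4) is not read as a difference between the classes. In macrophage-like cells it was too low for the test of its own class, with 6 UMIs in IR day 3 and 52 in MI. Of the macrophage-like cells 219 of 280 in MI lay in cluster 1 and 138 of 193 in IR day 3 in cluster 8, and at equal depth 1 of 20 genes tested was called. Macrophage markers (7832 to 11990 CPM in MI, 12237 to 18682 in IR day 3), cardiomyocyte markers (156 to 780 and 740 to 3583) and neutrophil markers (546 to 1103 and 70.5 to 238) moved with this comparison, and their part was not tested.

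In cardiomyocyte-like cells of MI, which rest on 6 cells on each of 2 plates, 21 of 32 genes were lower than in sham and 2 were higher, where 22.1% of all 4219 genes were lower and 14.2% higher. The median was -2.50 (-2.12 with genes at 0 set to their counting limit), against -0.21 over all genes. Hspa5 read 127 and 339 CPM in MI and 820, 1634 and 1865 (lowest, median and highest) on 9 sham plates, so that the groups were apart (-3.60, SE 0.591, adjusted p = 9.37e-07). Hsp90b1 (88.7 and 136 CPM, -3.40), Canx (38.0 and 113, -3.14) and Calr (114 and 158, -2.53) fell, overlapping only with sham day 14 replicate 6 at 91.1 CPM, and Pdia6 (-1.80) fell with overlap.

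Several of these genes were near 0 in MI. Tmed10 fell by 3.76 on 4 UMIs. Herpud1 and Spcs1 had 3 UMIs each, with pooled ratios of 0.138 (0.0282 to 0.406) and 0.132 (0.0270 to 0.389). P4ha2 had 0 UMIs against 112 in sham and was at least 3.07-fold lower, and the ratios were 0.147 for Pdia3, 0.0935 for Plod1 and 0.122 for P4ha1. These genes, with 0 to 2 UMIs in MI, passed the filter on low counts only through plates of other groups. Their calls, which are among the counts given here, carry no support, and the same holds for other genes this scarce in MI. Sec61g moved the other way, at 266 and 339 CPM against 19.0 to 91.1 in sham (1.72, adjusted p = 0.000854), and Kdelr3 rose on 7 UMIs against 6 (adjusted p = 0.0130). Groups lay apart for 1 gene higher and 10 lower, against 25.8% and 9.79%. Without MI replicate 2, 8 genes were called (2 higher, 6 lower). Mitochondrial transcripts were at 2.38 and 15.5% in MI and 75.5 to 85.2% in sham, cardiomyocyte markers at 64230 and 74959 CPM and 74244 to 124475, and their part was not tested. Of the MI cells of this class 19 of 20 lay in cluster 3 (led by Sprr1a, Nppa and Nmrk2), which held 9 of the 465 sham cells. At equal depth only Hspa5, Hsp90b1 and Calr could be tested, and all 3 were called lower. With RLE scaling all genes turned to 807 higher and 764 lower, and the 32 genes gave 2 and 19.

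After 3 days of IR, Spcs3 rose in cardiomyocyte-like cells (132 to 240 CPM on 5 plates against 0 to 96.1, without overlap; 1.52, SE 0.344, adjusted p = 0.00111), Hspa5 fell by 1.13 (161 to 1193 CPM, adjusted p = 0.0148) and Hyou1 fell by 1.72 (adjusted p = 0.0369), where 4.38% of all genes were higher and 2.04% lower. Spcs3 was the only gene with separate groups (0.924% of all genes higher). Replicate 3 of IR day 3 held 5 cells and 6209 UMIs, and 1 UMI there reads as 161 CPM, above every sham plate of Spcs3. The separation of Spcs3 thus rests on 1 UMI on that plate. Fibroblast markers (739 to 3690 CPM in IR day 3, 271 to 1033 in sham) and macrophage markers (185 to 1351 and 0 to 280) moved with this comparison, 8 of 11 collagen cargo genes tested rose in these cells, and their part was not tested. Of the IR day 3 cells 166 of 284 lay in cluster 3, and at equal depth edgeR called none of the 3 genes still tested. With wells of at least 500 UMIs it called none of 38, 1 gene was called with 3 cells per plate, without a gene filter or against sham day 14 alone, and 6 were against sham day 1 alone. Day 1 of IR had only 3 plates with 6, 5 and 15 cells and no planned test. There Hspa5 read 5391, 4345 and 2040 CPM, Hsp90b1 3898, 3856 and 1275 and Calr 2115, 2987 and 1445, each above all sham plates, and the 41 genes together made 1.66, 1.87 and 1.10% of UMIs. How many of all genes lay apart from sham on these plates was not counted, so the separation is not read as particular to the named genes. On these plates cardiomyocyte markers read 39977 to 48984 CPM (74244 to 124475 in sham) and neutrophil markers 543 to 871 (57.0 to 481), 24 of the 35 cells of IR day 1 lay in cluster 3, and the part of these was not tested. At day 14 none of the 32 genes was called by edgeR against sham day 14, nor at an unadjusted p under 0.05, and DESeq2 called 0, where 0.190% of all genes were higher and 0.0237% lower.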

How the data were processed

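SORT-seq libraries of single cells were measured on 36 plates. The authors aligned the reads with BWA to GRCm38 (mm10) and deposited UMI counts per gene and well as whole numbers, without correction for the limit of 4096 that 6-base UMIs allow. From these counts, mitochondrial genes and spike-ins were left out, wells with at least 1000 UMIs were clustered (scanpy 1.11.5, Leiden, 2000 variable genes, 30 components, resolution 1) without the 41 genes and their pathway lists, except the collagen cargo, and clusters were named from fixed markers. Doublets were not called. Counts of a class were summed per plate with at least 5 cells and tested with edgeR 4.0.16 (quasi-likelihood, TMM, Benjamini-Hochberg over all genes passing edgeR's filter on low counts, threshold 0.05) in R 4.3.3. Depth per fibroblast plate was 27506 to 1756118 UMIs, and the precision follows from it. On simulated data made like the comparison of MI with sham in fibroblast-like cells (5145 genes), 52.3% of 88 genes changed 4-fold and 3.66% of 82 genes changed 2-fold were called.

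Groups followed the labels, and the sham reference averaged both sham days. In each comparison the genes past the test with the smallest adjusted p, up to 12 in each direction, were named, with further genes of a role group chosen after their values were seen. The alternatives were DESeq2 1.42.0, RLE scaling, no gene filter, other minimums of cells and UMIs, other clusterings, each sham day alone, plates left out and the replicate number as a block. Thinning to equal depth was chosen after seeing the data. The 41 genes and the lists were chosen with earlier results of these data known. Other classes and clusters were not tested between groups, and wells of fewer UMIs were not used.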

Additional observations from a re-analysis of the deposited data

Results flagged for a closer look

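In groups of 4 to 10 plates, a plate stood apart from the others of its group by Dixon's test in 17 of 286 cases, where chance gives about 1 in 20. IR day 1 replicate 3 did so in fibroblast-like cells for chaperones (0.952% of UMIs), disulfide isomerases (0.301%), collagen-modifying genes (0.480%), all 41 genes (2.36%) and Serpinh1 (3149 CPM), as the highest plate each time. The chaperones were highest on IR day 3 replicate 5 (0.619%), and Kdelr2 on MI replicate 2 (617 CPM) in a narrow group.

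In endothelial-like cells stress signalling genes were highest on IR day 1 replicate 6 (0.242%, with Atf4 at 1141 CPM) and on MI replicate 5 (0.115%), where Canx was lowest (325 CPM), and Fkbp10 was highest on sham day 14 replicate 5 (42.1 CPM). In macrophage-like cells Sec61a1 was highest on IR day 1 replicate 6 (401 CPM), and in neutrophil-like cells the collagen-modifying genes were highest on IR day 1 replicate 6 (0.0912%). In cardiomyocyte-like cells the transport genes were at 0% on IR day 3 replicate 3, Pdia6 was highest on sham day 1 replicate 1 (656 CPM) and Kdelr3 on sham day 14 replicate 6 (91.1 CPM).

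The change of P4ha3 between IR day 3 and MI was fitted as differing between fibroblast-like and macrophage-like cells by -2.58 on the log2 scale, with an adjusted p of 0.0176 in edgeR's test and 0.405 without IR day 3 replicate 4. The gene did not pass the filter on low counts in macrophage-like cells (6 UMIs in IR day 3), so the value is not read as a difference between the classes. After MI against sham, every plate of the classes named moved in opposite directions for Pdia3 and Ssr3 (endothelial-like minus cardiomyocyte-like cells 4.33 and 3.28) and for P4ha1 and P4ha2 (fibroblast-like minus cardiomyocyte-like cells 5.39 and 9.27), and these differences were not tested. The value for P4ha2 is fitted with 0 UMIs in MI cardiomyocyte-like cells and is no bound. In unnamed cluster 6, which held only 1 sham well, too few to compare, the 41 genes made 0.916% of UMIs in MI (176 wells) and 1.57% in IR day 1 (11 wells).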

How the results depend on the processing

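The count of the 41 genes called was recomputed under each alternative, and no call of a named gene changed direction. With a plate left out, 959 results of named genes stayed past the threshold and 189 did not, and under the other alternatives 1304 did and 265 did not. In fibroblast-like cells, MI against sham (19 calls) gave 8 with sums thinned to equal depth and 6 against sham day 14 alone, an arm of 1 plate in this class. IR day 3 against sham (6 calls) gave 1 when thinned, 0 against sham day 14 alone, 2 when 3 cells sufficed and 3 when wells needed 2000 UMIs. IR day 1 against sham (9 calls) gave 5 when thinned and 2 against sham day 14 alone. MI against IR day 3 (2 calls) gave 0 when thinned, 1 with at least 3 cells, 7 with at least 10 cells, 1 with at least 500 UMIs and 4 without cells carrying other markers. IR day 3 against day 1 (5 calls) gave 8 with DESeq2, 3 with at least 10 cells and 3 with at least 2000 UMIs. In macrophage-like cells, IR day 3 against day 1 (12) gave 2 when thinned, and MI against IR day 3 (3) gave 1 when thinned and 6 without a gene filter. In endothelial-like cells, IR day 1 against sham day 1 (1) gave 2 with DESeq2, 3 with at least 2000 UMIs, 5 with at least 500 and 2 with the 41 genes kept for clustering, and MI against sham (20) gave 4 when thinned and 13 against sham day 1 alone. In cardiomyocyte-like cells, MI against sham (23) gave 3 when thinned and 15 with at least 500 UMIs, and IR day 3 against sham (3) gave 0 when thinned, 0 with at least 500 UMIs, 1 with at least 3 cells, 1 without a gene filter, 1 against sham day 14 alone and 6 against sham day 1 alone. Thinning also left fewer of the genes to test (29, 20, 9 and 3 in the 4 classes). The other causes were not tested. The summed fibroblast level of IR day 1 was 2.36% with at least 10 cells per plate, that of IR day 14 0.823% with at least 500 UMIs, and without Rn45s those of sham day 1 and IR day 14 were 1.10% and 0.921%.

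With 1 plate left out at a time, the calls ranged from 14 to 21, 4 to 7, 7 to 12, 0 to 3 and 2 to 13 for the fibroblast comparisons in the order above, from 8 to 13 and 0 to 3 for macrophage-like cells, from 1 to 2, 16 to 19 and 0 to 0 (IR day 14) for endothelial-like cells, from 8 to 23, 2 to 3 and 0 to 0 (IR day 14) for cardiomyocyte-like cells, and from 0 to 1 for the difference between classes. Endothelial IR day 1 without replicate 5 had 2 calls.

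Plates with the same replicate number did not deviate together (correlations from -0.20 to 0.071 in fibroblast-like cells, 0 of 20 pairs over 0.1), so the numbers do not pair the plates. With the replicate block the calls were 12, 0, 2, 0 and 1 for the fibroblast comparisons in the order above, 4 and 1 for macrophage-like cells, 0 for endothelial IR day 1 and 0 for cardiomyocyte IR day 3, and the other counts stayed within 1.5 times.

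Depth limits the sham plates most, at 27506 to 67245 fibroblast UMIs, where a count of 0 allows up to 44.6 to 109 CPM.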

Other observations

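Within fibroblast-like cells of IR day 3, the 41 genes differed between clusters whose collagen cargo was alike. They made 1.79% of UMIs in cluster 5 (36 cells, 95% exact binomial interval 1.75 to 1.83%, counting error only) and 1.17% in cluster 14 (20 cells, 1.11 to 1.23%), while the cargo made 10.02% and 9.91%. The collagen-modifying genes made 0.531% and 0.297%. The third cluster of the class, 13.2 (15 cells), had 0.930% and a cargo of 3.42%. Cluster 14 of sham day 1 was at 1.03% and that of IR day 14 at 0.857%. Of the 20 cells of cluster 14, 15 came from replicate 3, while the cells of cluster 5 were spread over replicates 3 to 7. The 20 cells held 112513 UMIs, and all fibroblast-like cells of replicate 3 held 49137. Most of the UMIs behind the share of cluster 14 thus came from its few cells of other replicates. Clusters were drawn from these cells, their depth differs (medians of 4569, 1856 and 2397 UMIs per cell in IR day 3), and no test was made between them.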
